A study of Bos taurus with 16 samples.

Results

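The early growth response (EGR) transcription factors EGR1, EGR2 and EGR3 and their corepressors NAB1 and NAB2 were examined in the muscle of newborn Hanwoo calves, 5 genes of the 34109 listed in the deposited files. NAB2 was chosen by its diet difference in sirloin muscle of these same libraries, and the other 4 genes by belonging to the same family of factors and corepressors. All 5 had reads in all 16 libraries. EGR4, the remaining EGR family member, had 0 counts in every library, for which the upper limit is 0.00338 CPM (counts scaled to the size of the library) over the 16 libraries together. RNA was sequenced from round muscle, a hindquarter cut, and from sirloin muscle of 8 male calves of Hanwoo cattle, a Korean beef breed. Control dams (n = 4) received the feeding level that the study names standard nutrition (100%). Treated dams (n = 4) received the level it names overnutrition (150%) in mid to late pregnancy. All calves were taken from the dam at birth before drinking colostrum, were euthanised with pentobarbital and received no diet treatment of their own. The diet therefore acted through the dam, and each calf gave 1 round and 1 sirloin library.

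EGR proteins are zinc finger transcription factors of the immediate early class, switched on within minutes by growth factors, mechanical load and nerve activity through ERK kinase signalling and serum response factor. NAB1 and NAB2 bind a shared repression domain of EGR1, EGR2 and EGR3 and recruit chromatin-remodelling repressors. NAB2 is itself an EGR target, so that the corepressor closes a feedback loop on its own activators. In muscle tissue EGR1 also acts in tendon and connective tissue cells, EGR2 in the Schwann cells that myelinate nerves, and EGR3 in muscle spindles, the stretch sensors.

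Each library held between 44473011 and 72446933 counts. All 10 skeletal muscle markers examined, such as ACTA1 and CKM, were found at 363 CPM or more in every library. The sirloin library of treated calf 4 correlated least, on average, with the rest of its muscle (0.962, compared with 0.968 to 0.975 for the other sirloin libraries). Results of the members that turn or move most without this calf are given with and without it. In such bulk tissue, fewer cells of a type and less RNA per cell cannot be told apart.

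EGR1 was the most abundant member. On the TPM scale (a transcript's share of its library, which allows for gene length) it ranked first among the 5 genes in 14 of 16 libraries. Mean TPM of EGR1 (± SD, n = 4 each) was 51.8 ± 37.0 in round control, 30.0 ± 44.7 in round treated, 19.3 ± 16.4 in sirloin control and 57.9 ± 93.7 in sirloin treated muscle. Without treated calf 4 the treated means were 7.73 ± 4.78 TPM in round and 11.2 ± 10.3 TPM in sirloin muscle (SD, n = 3 each). The corepressors followed, with group means of 2.10 to 8.36 TPM for NAB2 and 3.54 to 5.84 TPM for NAB1. EGR3 averaged 0.510 to 1.38 TPM, and EGR2 was below 1 TPM in all 16 libraries. The order EGR1, NAB2, NAB1, EGR3, EGR2 was the most common and held in 5 libraries, and the same order with NAB1 above NAB2 held in 4. NAB2 and NAB1 were neighbours in this order, and in round control muscle their means of 5.96 ± 1.78 and 5.84 ± 2.60 TPM (SD, n = 4 each) differed by less than the spread between calves. NAB2 was above NAB1 on the TPM scale in 7 of 8 control libraries and in 1 of 8 treated libraries. This count is a description, because it includes the sirloin libraries by whose diet difference NAB2 was chosen. In round muscle some log2 ratios of NAB2 to NAB1 were near 0, such as 0.08 in control calf 4 and -0.02 in treated calf 2. The ratio of EGR1 to NAB2 in TPM ran from 0.88 in sirloin control calf 2 to 107 in sirloin treated calf 4.

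**Figure D1:**
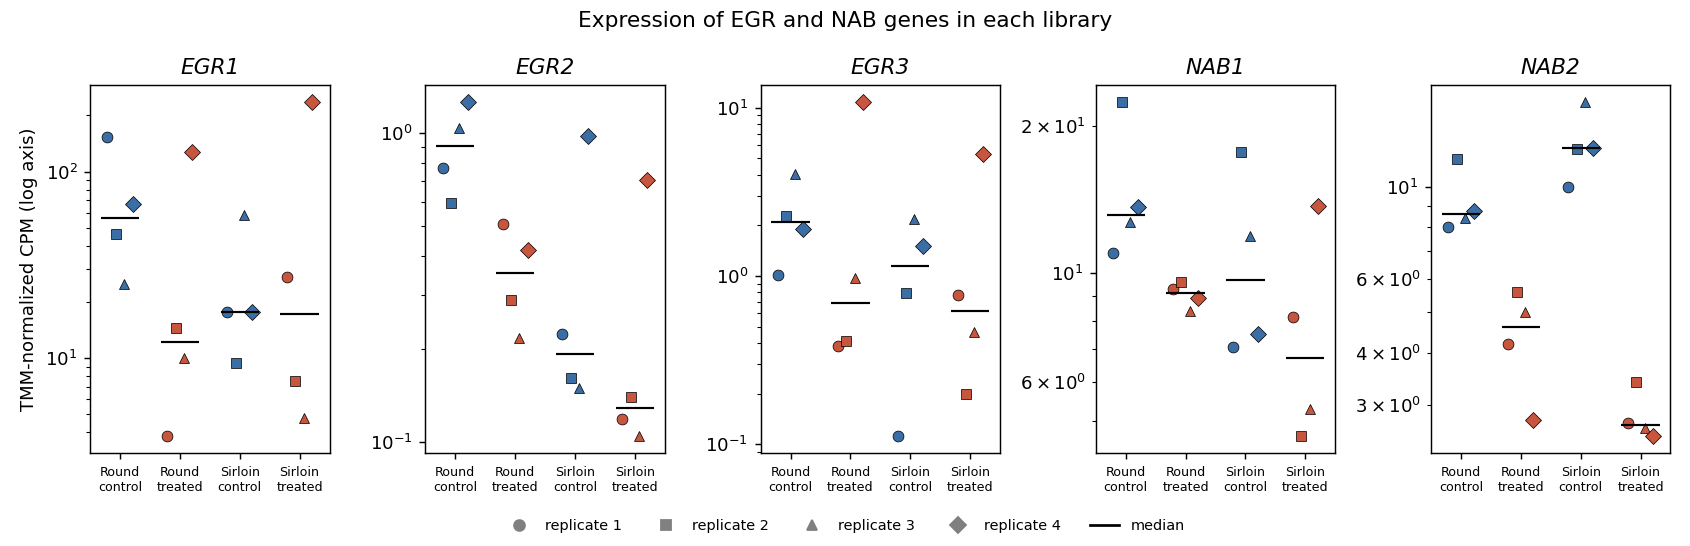
Level of each of the 5 genes in every library, as CPM with TMM scaling on a log axis, with 1 point per calf and a bar at the group median. NAB2 lies lower in treated than in control libraries without overlap in both muscles (4.39 and 9.20 CPM on average in round, 2.82 and 12.7 CPM in sirloin), and EGR1 and EGR3 of treated calf 4 stand above the other treated calves.

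The levels below are CPM after TMM scaling, given for calves 1 to 4 of a group in that order. NAB2 (gene ID 504755), the activity-induced corepressor, measured 8.02, 11.7, 8.43 and 8.71 CPM in round control muscle and 4.2, 5.58, 5.02 and 2.76 CPM in round treated muscle. The lowest control calf was above the highest treated calf. In sirloin muscle NAB2 measured 9.95, 12.3, 15.97 and 12.3 CPM in control and 2.72, 3.40, 2.63 and 2.52 CPM in treated calves. All treated libraries again lay below all control libraries, and the treated values were packed within 1 CPM of each other. Between 132 and 960 reads stood behind each NAB2 value.

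The EGR factors varied far more between calves of a group. EGR1 (407125), the main immediate early factor of the family, measured 153, 46.4, 24.9 and 67.0 CPM in round control calves and 3.81, 14.4, 10.1 and 128 CPM in round treated calves. Apart from treated calf 4, the treated round muscles were all below the lowest control value. In sirloin muscle EGR1 was 17.6, 9.45, 58.8 and 17.6 CPM in control and 27.2, 7.5, 4.75 and 237 CPM in treated calves. Calf 4 again held the highest treated value, and the groups overlapped.

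EGR3 (526233), the spindle factor, measured 1.01, 2.27, 4.03 and 1.90 CPM in round control calves and 0.382, 0.412, 0.969 and 10.8 CPM in round treated calves. In sirloin muscle it was 0.112, 0.791, 2.18 and 1.51 CPM in control and 0.768, 0.2, 0.461 and 5.28 CPM in treated calves. Treated calf 4 was the highest of all 8 calves in either muscle, whereas the other 3 treated round values lay below the lowest control value, 0.969 CPM close to it and 0.382 and 0.412 CPM well under it. EGR2 (100297981), the myelination factor, was the least abundant, with 6 to 58 reads per library. It measured 0.770, 0.596, 1.04 and 1.27 CPM in round control and 0.510, 0.288, 0.217 and 0.418 CPM in round treated calves, without overlap. In sirloin muscle it was 0.223, 0.161, 0.150 and 0.981 CPM in control and 0.118, 0.140, 0.104 and 0.703 CPM in treated calves, and calf 4 was the highest in both diets.

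NAB1 (516781), the corepressor that is less dependent on stimulation, measured 11, 22.5, 12.8 and 13.7 CPM in round control calves and 9.29, 9.59, 8.38 and 8.92 CPM in round treated calves. The treated round values lay in a narrow band below every control value. On the TPM scale, however, the round groups overlapped for NAB1 (3.84 to 9.66 TPM in control, 3.51 to 4.25 TPM in treated). In sirloin muscle NAB1 was 7.07, 17.8, 11.9 and 7.51 CPM in control and 8.14, 4.64, 5.27 and 13.8 CPM in treated calves, and the groups overlapped. Control calf 2 had the highest NAB1 of its group in both muscles. This calf's round library also carried the highest summed level of 7 tendon markers (2837 CPM, compared with 190 to 455 CPM in the other round libraries), and the part of tendon tissue in the NAB1 value was not tested.

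The round libraries were not used in the choice of NAB2, but they come from the same 8 calves as the sirloin libraries, so a test of the diet in round muscle is not independent of that choice. None of the 5 members passed the threshold there (edgeR's quasi-likelihood test, adjusted over 21677 genes), and 0.0185% of all genes tested did. The largest difference relative to its error was that of NAB2, which averaged 9.20 ± 1.66 in control against 4.39 ± 1.23 CPM in treated calves (SD, n = 4 each). On the log2 scale treated minus control came to -1.05 ± 0.297 (standard error, as after each ± of a log2 difference below), with an unadjusted p = 0.00429 and an adjusted p = 0.864 by edgeR. EGR2 averaged 0.919 ± 0.296 against 0.358 ± 0.131 CPM (SD, n = 4 each), a log2 difference of -1.33 ± 0.503 with an adjusted p = 0.864 by edgeR. For NAB1 the means were 15.0 ± 5.12 and 9.04 ± 0.519 CPM (SD, n = 4 each), and the log2 difference was -0.71 ± 0.270 with the same adjusted p = 0.864 by edgeR. With each calf left out in turn, the NAB1 difference ran from -0.83 to -0.48, the latter without control calf 2. By edgeR, the unadjusted p-value of these 3 members was under 0.05, as it was for 4.41% of all genes. DESeq2 and limma-voom also called 0 members and gave 3 with an unadjusted p-value under 0.05. This number was less stable in other edgeR fits. It was 1 when both muscles were put in a single fit, and 2 to 5 with 1 calf left out. The same 3 members had all treated below all control libraries, compared with 0.992% of genes. Over the alternatives tried, the adjusted p-value of NAB2 ran from 0.121 to 1.0.

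For EGR1 and EGR3 the spread between calves exceeded the diet difference in round muscle. EGR1 averaged 72.8 ± 56.2 in control against 39.1 ± 59.5 CPM in treated calves (SD, n = 4 each), and its log2 difference of -0.88 ± 0.903 had an adjusted p = 0.913 by edgeR. EGR3 averaged 2.30 ± 1.27 against 3.15 ± 5.13 CPM (SD, n = 4 each), with a log2 difference of 0.47 ± 0.940 and an adjusted p = 0.981 by edgeR. Treated calf 4 decided both values. Without it the log2 fold change was -2.96 for EGR1 and -1.97 for EGR3. All 5 members then had treated below control libraries in round muscle by CPM, compared with 2.02% of genes in the same 7 libraries. Calf 4 was singled out by its high EGR1 and EGR3 values, so this count is a description only. On the TPM scale EGR3 still overlapped (0.474 TPM in treated calf 3, 0.381 TPM in control calf 1), as did NAB1. Without control calf 1 the log2 fold change of EGR1 was -0.22. NAB2 was less affected by calf 4, with -0.90 without it.

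**Figure D2:**
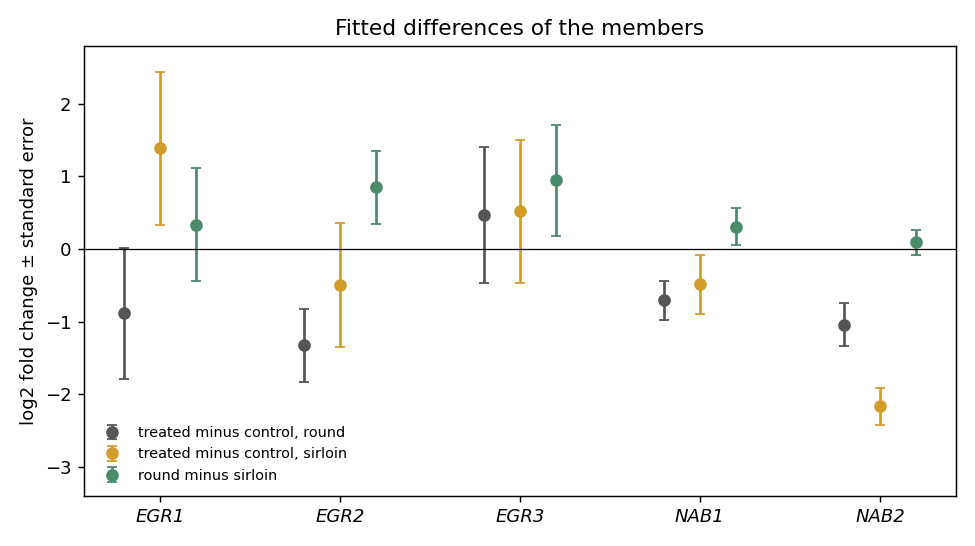
Log2 fold change of treated over control calves for each member in round and in sirloin muscle, with bars of 1 standard error from edgeR, 8 calves per muscle. Further points give round minus sirloin over both diets, from the fit of all 16 libraries. NAB2 is negative in both (-1.05 in round, -2.17 in sirloin), whereas EGR1 lies at -0.88 in round and 1.39 in sirloin muscle with wide errors.

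In sirloin muscle the diet difference is given as a description, because NAB2 was selected on it. Means of NAB2 were 12.7 ± 2.48 in control against 2.82 ± 0.397 CPM in treated calves (SD, n = 4 each), with a log2 difference of -2.17 ± 0.252. It stayed between -2.27 and -2.03 when each calf was left out in turn. NAB2 was the only 1 of the 5 members with all treated below all control libraries, a pattern of 0.813% of the genes tested. EGR1 averaged 25.9 ± 22.3 against 69.2 ± 113 CPM (SD, n = 4 each). The log2 difference was 1.39 ± 1.06 for EGR1, 0.52 ± 0.985 for EGR3, -0.50 ± 0.851 for EGR2 and -0.49 ± 0.403 for NAB1. Each of these was smaller than 1.5 standard errors. With limma-voom, EGR1 was at 0.14 and EGR3 at 0.11. Without treated calf 4, EGR1 was at -0.97, EGR3 at -1.26, EGR2 at -1.61 and NAB1 at -0.87. EGR2 then joined NAB2 as a gene without overlap by CPM (1.88% of genes in those 7 libraries). By TPM, EGR2 still overlapped (0.0951 TPM in treated calf 2, 0.0864 TPM in control calf 3). As treated calf 4 held the highest treated EGR2 value, the count is a description only. Without control calf 4, which had the highest control value of EGR2, EGR2 turned to 0.57. In treated calf 4, EGR1 was at its highest and NAB2 at its lowest among the treated calves, in both muscles. In sirloin muscle, however, its NAB2 of 2.52 CPM was close to the 2.63 and 2.72 CPM of treated calves 3 and 1. As this calf was singled out by its EGR values, the remark is a description only.

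NAB2 shares its end with the neighbouring gene STAT6, a cytokine-activated transcription factor, and the sources used here do not state whether reads were counted by strand. The level of STAT6 was 23.2 ± 6.62 in round control against 21.3 ± 5.91 CPM in round treated muscle (SD, n = 4 each), a log2 difference of -0.11 ± 0.285 with an adjusted p = 0.987 by edgeR. In sirloin muscle it was 23.2 ± 4.22 against 23.5 ± 5.87 CPM (SD, n = 4 each), and the groups overlapped in both muscles.

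Round muscle was then compared with sirloin muscle over both diets. No member passed the threshold (0.0612% of 22877 genes did), and by edgeR none was under 0.05 without adjustment, compared with 6.33% of all genes. DESeq2 and limma-voom called 0 members, and limma-voom gave 1 with an unadjusted p-value under 0.05. The log2 difference of round over sirloin was 0.95 ± 0.765 for EGR3 (adjusted p = 0.984 by edgeR) and 0.85 ± 0.5 for EGR2 (adjusted p = 0.859 by edgeR). It was 0.33 for EGR1, 0.31 for NAB1 and 0.09 for NAB2, with standard errors of 0.778, 0.250 and 0.177. EGR2, EGR3 and NAB1 were higher in round muscle in 7 of 8 calves each, EGR1 in 5 and NAB2 in 4. With the calf as a block, which removes what the muscles of a calf share, EGR2 stood at 1.22 ± 0.384 (adjusted p = 0.209 by edgeR), EGR3 at 0.93 ± 0.308 (adjusted p = 0.242 by edgeR) and NAB1 at 0.40 ± 0.173 (adjusted p = 0.408 by edgeR). These 3 then had an unadjusted p-value under 0.05, as did 11.2% of all genes in that fit, and no member was called, compared with 0.476% of all genes.

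For NAB2 the sign of the muscle difference followed the diet. The log2 CPM of round minus sirloin was -0.31, -0.08, -0.92 and -0.50 in control calves 1 to 4, and 0.62, 0.71, 0.92 and 0.13 in treated calves. NAB2 was thus higher in sirloin in all 4 control calves and higher in round in all 4 treated calves. Since this contrast contains the sirloin diet difference by which NAB2 was selected, it was not tested. In the joint fit, the diet effect in round minus that in sirloin was 1.10 ± 0.355 for NAB2. For the EGR factors the corresponding values were -2.32 ± 1.58 for EGR1, -0.88 ± 0.998 for EGR2 and -0.10 ± 1.51 for EGR3, and for NAB1 the value was -0.25 ± 0.5. Only EGR1 and NAB2 kept their sign when each calf was left out in turn (-3.36 to -1.47 for EGR1, 0.94 to 1.25 for NAB2). Without treated calf 4, EGR2 turned to 0.18 and NAB1 to 0.15, and EGR3 was at -0.70. EGR3 turned to 0.05, 0.06 and 0.03 without control calf 1, control calf 2 and treated calf 1, and stood at -0.73 with the calf as a block. Within diets, EGR1 differed between the muscles of a calf by 3.12, 2.29, -1.24 and 1.93 on the log2 scale in control calves and by -2.82, 0.94, 1.08 and -0.89 in treated calves. Neither diet had a common direction for EGR1.

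**Figure D3:**
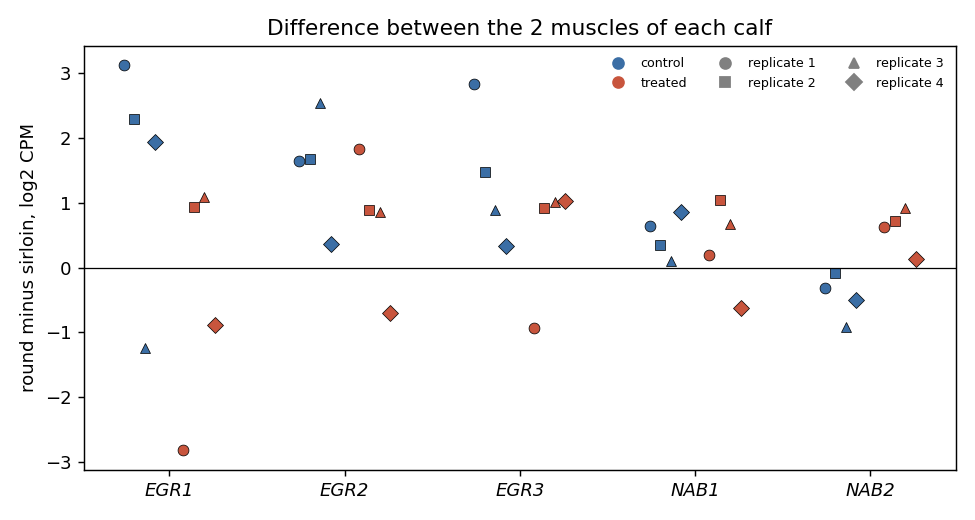
Round minus sirloin difference in log2 CPM within each calf for the 5 genes, with control and treated calves in separate colours and a line at 0. For NAB2 the 4 control calves lie at or below -0.08 and the 4 treated calves at or above 0.13, whereas both diets lie on both sides of 0 for EGR1.

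NAB2 was next related to the other members across calves. The diets were separate clusters for NAB2 in both muscles, so no pooled correlation was computed, and diet means were removed first (n = 8 calves in each muscle). In round muscle Pearson's r of NAB2 was -0.628 with EGR1 (exact permutation p = 0.217), -0.595 with EGR2 (exact permutation p = 0.17), -0.683 with EGR3 (exact permutation p = 0.189) and 0.497 with NAB1 (exact permutation p = 0.0833). All 4 had an adjusted p of 0.434 over the 8 relations of NAB2 in this family (exact permutation tests, two-sided). Spearman's rho was -0.452, -0.5, -0.476 and 0.643 in the same order, with exact permutation p-values of 0.33, 0.292, 0.299 and 0.0747 (adjusted 0.66 for the EGR genes and 0.597 for NAB1). The negative sign for EGR1 and EGR3 rested on treated calf 4, without which r was 0.13 and 0.22. Without treated calf 4 and control calf 2, which were farthest from the median of NAB2, r was 0.448 with EGR1, -0.474 with EGR2, 0.245 with EGR3 and 0.284 with NAB1.

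In sirloin muscle r of NAB2 was -0.047 with EGR1, -0.286 with EGR2, 0.177 with EGR3 and -0.04 with NAB1 (exact permutation p = 0.918, 0.533, 0.674 and 0.92, adjusted 0.92, 0.853, 0.898 and 0.92). Spearman's rho was -0.119, -0.333, 0.262 and -0.024 (exact permutation p = 0.78, 0.524, 0.587 and 0.965, adjusted 0.891, 0.782, 0.782 and 0.965). Leaving out control calf 3 and treated calf 4 gave r of -0.229, 0.332, 0.283 and 0.101. With 4 calves per diet the smallest p the test allows is 0.00174. No relation of NAB2 to an EGR gene or to NAB1 within diets was detectable in either muscle on this scale. On log2(TPM + 1), r of NAB2 with NAB1 in round muscle was 0.78 (adjusted exact permutation p = 0.0139). Control calf 2 had the highest round value of both genes (9.66 TPM for NAB1, 8.60 TPM for NAB2). On log2 CPM, r of this pair ran from 0.18 to 0.82 with 1 calf left out.

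**Figure D4:**
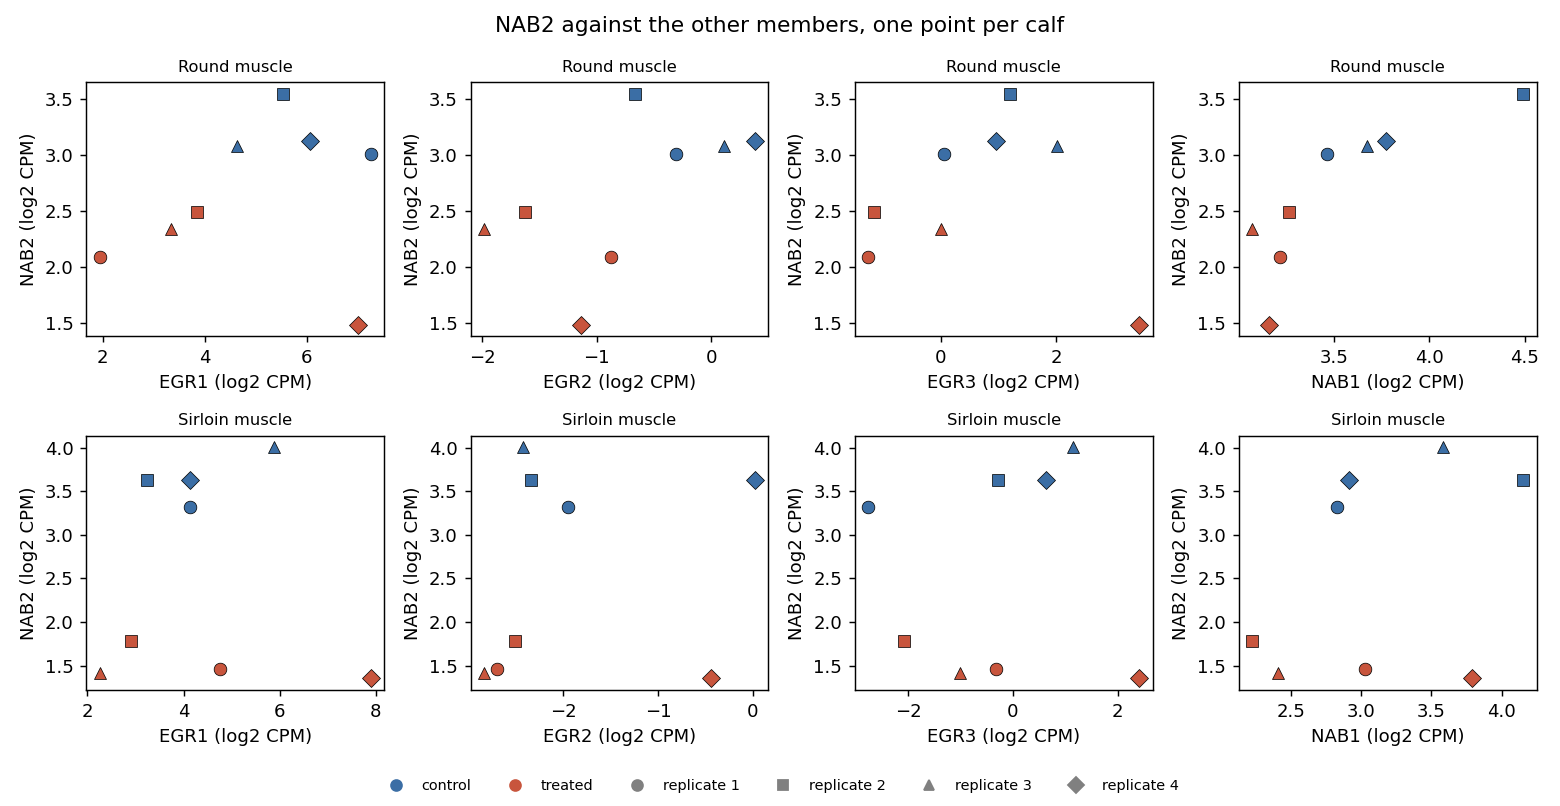
NAB2 against each other member in log2 CPM, 1 point per calf, with round and sirloin muscle in separate rows and the diets in separate colours. The diets separate along NAB2 in both muscles (r with the diet means removed from -0.683 to 0.497 in round and from -0.286 to 0.177 in sirloin muscle).

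The EGR factors were also compared with each other, a choice made after the values were seen. In sirloin muscle EGR1 and EGR3 had r = 0.755 within diets (exact permutation p = 0.0486, adjusted 0.267 over 11 such relations; rho 0.619, exact permutation p = 0.139, adjusted 0.735), and 0.55 without the pair of farthest calves. In round muscle r was 0.618 (exact permutation p = 0.295, adjusted 0.464; rho 0.333, exact permutation p = 0.509, adjusted 1.0). EGR3 in round related to EGR3 in sirloin of the same calf with r = 0.832 (exact permutation p = 0.0208, adjusted 0.229; rho 0.81, exact permutation p = 0.0365, adjusted 0.401), and with 0.871 without the pair of farthest calves. None of these passed the correction.

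Among 12314 genes with a mean of at least 1 CPM, the log2 CPM profile of NAB2 over the 16 libraries was most like those of genes that include STX7, an endosomal membrane fusion protein (r = 0.861), and NFATC2, a calcineurin-controlled transcription factor (0.849). MAP2K6, which activates p38 kinase (0.79), and DUSP3, a phosphatase that acts on ERK (0.763), were also among the leading 5. These values include the diet difference by which NAB2 was chosen and calves that share a library pair, and are descriptions. NAB1 had r = 0.493 with NAB2 on this measure, exceeded by 2.7% of genes. The EGR factors lay at 0.262 for EGR2, 0.053 for EGR1 and -0.01 for EGR3, with 16.3%, 42.5% and 51.4% of genes above them. After the 4 group means were removed, other genes took the leading places, namely DPYSL2 (0.912), PIK3CG (0.898), IL16 (0.858), SMAD3 (0.853) and PBX2 (0.847). NAB1 was then at 0.159 and EGR1, EGR2 and EGR3 at -0.363, -0.338 and -0.309.

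Genes around the EGR-NAB loop were described from 5 lists of 65 genes in all. In round muscle edgeR called 1 of the 65 for the diet, the AP-1 subunit FOSL1, which fell from 12.8 ± 6.86 in control to 0.549 ± 0.370 CPM in treated calves (SD, n = 4 each), or by 4.49 ± 0.572 on the log2 scale (adjusted p = 0.0367 by edgeR). This call was lost in 7 of the 8 fits that left out 1 calf, with adjusted p-values of 0.0508 to 0.111 by edgeR, and kept without treated calf 1 (0.0429), while the log2 difference stayed between -4.96 and -4.07. DESeq2 called 3 of the 65, namely ARC, FOSL1 and JUND, limma-voom called 0, and edgeR gave 8 with an unadjusted p-value under 0.05 (4.41% of all genes). The 23 other immediate early genes had a median log2 fold change of -0.37 in round and 0.17 in sirloin muscle, beside 0.023 and 0.029 over all genes tested. The 10 ERK and serum response factor inputs, which switch EGR genes on, had medians of 0.13 and 0.03, with 0 called in round muscle. The 10 feedback inhibitors of ERK had medians of -0.36 and 0.29, with 0 called in round muscle. Of these, SPRY4, a Sprouty inhibitor of receptor signalling, stood at -1.11 ± 0.346 (adjusted p = 0.864 by edgeR) in round and at -0.96 ± 0.314 in sirloin muscle.

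Of the 14 known EGR targets other than NAB2, 0 were called in round muscle, and the medians were -0.12 in round and -0.21 in sirloin muscle. The collagen genes COL1A1 and COL1A2 had log2 fold changes of -1.61 and -1.51 in round muscle (standard errors 0.795 and 0.760, adjusted p = 0.864 by edgeR for each). Without control calf 2, whose round library had the high tendon markers, they turned to 0.22 and 0.18. In sirloin muscle the cell cycle inhibitor CDKN1A stood at 0.76 ± 0.733, and at -0.38 without treated calf 2. The 8 partners of NAB proteins in chromatin repression had medians of -0.01 and 0.08, with 0 called in round muscle, and MTA1 was the farthest from 0 of those at 1 CPM or more, at 0.64 in round muscle (standard error 0.232, adjusted p = 0.864 by edgeR). Between the muscles edgeR called 1 of the 65 genes, again FOSL1, which was higher in round by 4.06 on the log2 scale (standard error 0.532, adjusted p = 0.00184 by edgeR). It was called without any 1 of the 8 calves as well (adjusted p = 0.00257 to 0.0156 by edgeR). DESeq2 called 2 (CCN2 and FOSL1) and limma-voom 1, and edgeR gave 14 with an unadjusted p-value under 0.05 (6.33% of all genes). These fits between the muscles had no term for the calf, so the pairing of the muscles was not used for the list genes.

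Treated calf 4 also stood out in this wider group, a count made after its EGR values were seen. It was the highest of the 4 treated calves for 16 of the 23 other immediate early genes in round muscle (69.6%, compared with 22.5% of all genes) and for 15 of 23 in sirloin muscle (65.2%, compared with 28.3%). For the ERK feedback inhibitors it was the highest for 4 of 10 in round and 9 of 10 in sirloin muscle, and for the ERK and serum response factor inputs for 0 of 10 and 1 of 10. All 6 endothelial markers were highest in its sirloin library among the treated calves, and 1 of 6 in its round library.

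Markers of the cells in which EGR genes act gave the following levels. Summed Schwann cell markers (10 genes) ranged from 124 to 217 CPM in round control, 123 to 164 CPM in round treated, 103 to 235 CPM in sirloin control and 83.5 to 149 CPM in sirloin treated libraries, with all ranges overlapping. Summed muscle spindle markers (8 genes, mostly reads of the myosin MYH6) ranged from 349 to 724 CPM in round control and from 326 to 2146 CPM in round treated muscle, and GDNF was at 0 in 7 libraries. In sirloin muscle they ranged from 534 to 689 CPM in control and from 292 to 1250 CPM in treated libraries. Summed tendon markers (7 genes) ranged from 247 to 2837 CPM in round control and 190 to 455 CPM in round treated muscle, and from 126 to 556 CPM and 121 to 453 CPM in sirloin muscle. TNMD, a defining tendon marker, was at 0 in 8 libraries. Summed T cell and macrophage markers (8 genes) ranged from 7.12 to 18.4 CPM in control and from 8.54 to 43.9 CPM in treated libraries. Of all 8 marker lists, edgeR called 0 of 59 genes tested for the diet in round muscle (9 at an unadjusted p-value under 0.05, beside 4.41% of all genes, with DESeq2 calling CNN1 of smooth muscle and TNMD, and limma-voom none). Between the muscles, in fits without a term for the calf, edgeR called 0 of 60 (6 at an unadjusted p-value under 0.05, beside 6.33% of all genes, with 0 called by the other tools, DESeq2 and limma-voom). Red blood cell markers summed to 1.61 to 8.14 CPM in round control and 5.02 to 13.7 CPM in round treated libraries, and to 1.71 to 6.11 CPM and 4.72 to 12.4 CPM in sirloin muscle, with SLC4A1 at 0 in all 16. The median log2 difference between the diets was 1.48 in round and 1.45 in sirloin muscle for these genes, with all 5 and all 6 tested positive. For tendon it was -1.63 (7 of 7 negative) and -0.69 (6 of 7 negative), and for the muscle spindle 0.61 (8 of 8 positive) and 0.07 (5 of 8 positive). The 2837 CPM of summed tendon markers in round muscle came from control calf 2. The group medians of that sum were 298 CPM in round control and 331 CPM in round treated libraries. Skeletal muscle markers had median log2 differences of 0.13 and -0.37, the latter with 10 of 10 negative, and Schwann cell markers 0.36 and -0.16. The T cell and macrophage list had 0.44 and 0.48, the endothelial list 0.03 and 0.11, and the smooth muscle list -0.42 and -0.07. The part of these cell types in the EGR and NAB levels was not tested.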

How the data were processed

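Per the labels, RNA was extracted with TRIzol, enriched for poly(A) RNA and made into TruSeq libraries, whereas the study's methods describe a stranded total RNA kit with rRNA and globin removal. The submitters' processing notes name FastQC, Trimmomatic, STAR, featureCounts, DESeq2 and the ARS-UCD1.2 build, whereas the methods name Trimmomatic, SortMeRNA, HISAT2, Bowtie2 and StringTie. The strand used in counting is not given in the sources used here. The authors deposited read counts, whole numbers without normalization, for 34109 genes in 8 round and 8 sirloin libraries. The deposited normalized values sum to nearly the same total in each library and were used as the authors' TPM. Tables with the authors' fold changes and p-values were not used. Of the gene IDs, 90.2% had a symbol in RefSeq's ARS-UCD2.0 table, whose gene positions were used only to find that NAB2 overlaps STAT6, and no coordinates are given.

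Genes with at least 1 count in any library of a fit were tested with edgeR 4.0.16 (TMM factors, glmQLFit and glmQLFTest, two-sided) in R 4.3.3, adjusted by the Benjamini-Hochberg method over all genes, with a threshold of 0.05. The standard error is the size of the log2 fold change divided by the square root of F. The round fit used 8 libraries. The muscle comparison used all 16 libraries in 4 groups. Correlations were of log2 CPM (prior count 2), with exact permutation of calves within diets (scipy 1.17.1). Each calf is 1 replicate. After group means were removed, the muscles of a same-numbered calf correlated at 0.250 to 0.595 in all 8 calves. Round and sirloin libraries of different calves correlated at -0.342 to 0.281, a range that includes the 0.250 of treated calf 4. The number was taken to mark the calf, and the fit with the calf as a block is given beside the muscle comparison. Groups came from the sample labels.

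Alternatives were DESeq2 1.42.0, limma-voom (limma 3.58.1), other normalizations, a filter on low counts, blocks, other scales and leaving out each calf. The counts of genes without overlap on other scales or without a calf, the pathway genes and TPM means without a calf, the relations among EGR genes and the counts for treated calf 4 were added after seeing the data. The members and gene lists were chosen with earlier results of these data known, and are described by counts and medians without a set test. Named are the members, EGR4, STAT6, list genes called by edgeR or, in pathway lists without a call, some of those with the largest change at a mean of at least 1 CPM, and genes among the 5 most like NAB2. Some genes that this rule covers are not reported here. Genes that other tools called are named as well, after their values were seen. The steps were tested on simulated data. Intervals and floors (3 counts) cover counting error only.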

Additional observations from a re-analysis of the deposited data

Results flagged for a closer look

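In 7 of 20 groups of 4 libraries (5 members in 4 groups), 1 library lay far from the other 3, by a gap that passed Dixon's 95% critical value. For independent, normally distributed groups chance gives such a gap in about 1 of 20, a rate not measured here, where CPM is skewed and groups share calves. Treated calf 4 accounted for 5 of the 7. Its EGR1 level was 128 CPM in round muscle (others 3.81 to 14.4 CPM) and 237 CPM in sirloin muscle (others 4.75 to 27.2 CPM). Its EGR3 level was 10.8 CPM in round (others 0.382 to 0.969 CPM) and 5.28 CPM in sirloin muscle (others 0.2 to 0.768 CPM). Its EGR2 level in sirloin muscle was 0.703 CPM (others 0.104 to 0.14 CPM). In sirloin control muscle, EGR1 of calf 3 was 58.8 CPM (others 9.45 to 17.6 CPM), and EGR2 of calf 4 was 0.981 CPM (others 0.15 to 0.223 CPM). No library stood apart in this way for NAB1 or NAB2.

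The round minus sirloin difference of NAB2 in log2 CPM had opposite signs in the diets, with a mean of -0.45 in the control and 0.60 in the treated calves, 1.05 apart, and every calf followed the sign of its diet. The difference was not tested, because it contains the contrast by which NAB2 was chosen.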

How the results depend on the processing

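The member calls (0 in round muscle and 0 between the muscles) stayed at 0 under every alternative run, and NAB2 kept its sign for the diet in both muscles. EGR3 in round muscle turned from 0.47 to -0.89 with limma-voom and to -1.03 with the replicate block (same numbers across diets). The numbers do not pair the diets (correlations of -0.0672 to 0.188 in round and -0.154 to 0.164 in sirloin muscle). In sirloin muscle EGR1 was at 0.14 with limma-voom and with that block, and EGR3 at 0.11 and 0.03. With the block EGR1 was at -1.67 in round muscle, and NAB2 was at -1.07 in round and -2.16 in sirloin muscle. Leaving out each calf in turn gave -1.97 to 0.87 for EGR3 in round and -0.97 to 2.19 for EGR1 in sirloin muscle, in both cases with the lowest value without treated calf 4, and -1.61 to 0.57 for EGR2 and -1.26 to 1.04 for EGR3 in sirloin muscle. The diet effect in round minus that in sirloin ran from -1.75 to 0.18 for EGR2, -0.70 to 0.06 for EGR3 and -0.47 to 0.15 for NAB1. Leaving out a calf also gave -0.06 (without control calf 1) to 0.89 for EGR1 between the muscles, and 3 to 5 members without overlap in round and 1 to 2 in sirloin muscle. The correlation of NAB2 with NAB1 on log2(TPM + 1) was 0.78 in round muscle (adjusted exact permutation p = 0.0139) and 0.12 in sirloin muscle. The cause of these shifts was not tested. With 1 calf left out, r of NAB2 on log2 CPM in round muscle ran from -0.78 to 0.13 with EGR1. It ran from -0.81 to 0.22 with EGR3 and from 0.18 to 0.82 with NAB1. In sirloin muscle it ran from -0.46 to 0.37 with EGR1, -0.38 to 0.59 with EGR3 and -0.40 to 0.28 with NAB1. Without the pair of farthest calves r reversed to 0.45 (EGR1) and 0.24 (EGR3) in round and to 0.33 (EGR2) and 0.10 (NAB1) in sirloin muscle. Over all genes, edgeR called 4, DESeq2 45, limma-voom 1 and the replicate block 2 in round muscle, and edgeR 0 to 3 with 1 calf left out. Between the muscles edgeR called 14, DESeq2 84, limma-voom 21 and the calf block 109. Low counts limit EGR2 most, and 4 calves per diet limit all relations.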
